A study of Mus musculus with 12 samples.

Results

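The 1310 regions described here are the accessible sites that were called only in Runx1 knockout (KO) C2C12 myoblasts and that lie inside a gene, away from its ends. C2C12 is an established mouse myoblast line, and Runx1 encodes a DNA-binding transcription factor of the RUNX family. ATAC-seq, in which a transposase inserts sequencing adapters into open chromatin, was read here as lists of called peaks. A member is a peak of the KO list with no overlap of at least 1 bp with a peak of the wild-type (WT) list, whose centre lies inside a gene and more than 1 kb from every gene end. The rule selected 1310 of the 2607 KO-specific peaks (50.2%) and of the 27187 peaks of the KO list.

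Per the labels, the groups were C2C12 cells of WT or Runx1KO genotype in growth media with 20% FBS at day 0, with 3 samples in each group. The series has 12 samples in all, and the day 2 samples of both genotypes were not analysed here. The peak names of each list carry a replicate 1 label, and whether the other replicates entered the lists is not stated. Each peak has 1 set of values per list, with no replicate error. No p-value between genotypes is therefore given, sequencing depth is unknown, and all intervals are exact 95% intervals that cover the counting of peaks only. The labels name the allele only as Runx1KO and do not say whether the KO cells derive from 1 clone, so clone and genotype cannot be told apart. A site open in few cells and a site weakly open in all cells cannot be told apart either.

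Accessible sites inside genes are mostly enhancers, silencers, insulators or the start sites of shorter transcripts. In muscle cells such elements are bound by MyoD-type factors at E-box sequences, and by AP-1, TEAD, ETS and RUNX factors. RUNX proteins act with partner factors as activators or repressors, depending on the site. A peak inside a gene need not act on that gene, and gene names below give positions only.

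The sequences under members could be read where a member lies over an annotated start site inside its own host gene. Of the 1310 members, 26 (1.98%, interval 1.30 to 2.89%) overlapped such a start window, which runs from 250 bases before to 50 bases after a RefSeq start. The summit of the peak lay within the window in 18 of the 26. The 8 sequences printed here are those under hosts with at least 3 members (Prickle2, Mgat4c and Gm7361) and those of the other members with a −log10 q of at least 10 and at least 100 bases before the start in the peak. Each is the 250 bases before the start, 5′ to 3′ on the strand of the gene, from the RefSeq table of assembly GRCm38.p6, and capitals mark the bases inside the KO-specific peak. Prickle2 encodes a planar cell polarity protein, Mgat4c an enzyme of the N-glycan branching family, Cyp2j6 a cytochrome P450 epoxygenase, Trnp1 a nuclear protein and Adam8 a cell surface metalloprotease.
Prickle2, upstream start: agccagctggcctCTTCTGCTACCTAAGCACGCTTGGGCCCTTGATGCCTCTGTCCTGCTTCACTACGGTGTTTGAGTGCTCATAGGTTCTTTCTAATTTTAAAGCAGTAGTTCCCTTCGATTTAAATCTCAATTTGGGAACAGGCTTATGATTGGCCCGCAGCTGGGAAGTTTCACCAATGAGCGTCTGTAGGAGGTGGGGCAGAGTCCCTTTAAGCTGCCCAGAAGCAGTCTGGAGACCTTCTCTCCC
Prickle2, downstream start: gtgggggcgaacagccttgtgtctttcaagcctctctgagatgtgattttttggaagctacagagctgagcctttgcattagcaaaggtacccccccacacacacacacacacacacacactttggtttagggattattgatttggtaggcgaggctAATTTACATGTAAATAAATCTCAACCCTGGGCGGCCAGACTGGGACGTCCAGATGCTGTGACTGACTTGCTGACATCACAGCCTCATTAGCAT
Mgat4c: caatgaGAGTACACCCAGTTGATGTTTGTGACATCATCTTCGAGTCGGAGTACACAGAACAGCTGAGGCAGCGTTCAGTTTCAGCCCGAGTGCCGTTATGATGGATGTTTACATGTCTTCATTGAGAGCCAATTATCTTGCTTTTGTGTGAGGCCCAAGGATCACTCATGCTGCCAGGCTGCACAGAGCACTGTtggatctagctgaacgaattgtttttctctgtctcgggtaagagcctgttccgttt
Gm7361: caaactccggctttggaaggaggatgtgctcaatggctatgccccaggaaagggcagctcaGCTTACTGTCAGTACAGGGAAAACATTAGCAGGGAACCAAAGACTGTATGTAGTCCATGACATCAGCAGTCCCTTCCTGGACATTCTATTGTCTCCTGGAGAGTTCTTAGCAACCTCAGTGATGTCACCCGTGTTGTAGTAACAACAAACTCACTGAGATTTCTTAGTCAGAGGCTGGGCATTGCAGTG
Cyp2j6: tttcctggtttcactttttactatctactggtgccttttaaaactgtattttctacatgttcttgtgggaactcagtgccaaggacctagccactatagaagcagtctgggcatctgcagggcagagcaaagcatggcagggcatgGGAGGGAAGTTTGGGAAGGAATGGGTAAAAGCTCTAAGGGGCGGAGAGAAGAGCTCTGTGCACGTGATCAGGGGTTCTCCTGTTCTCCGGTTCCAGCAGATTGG
Tmem144: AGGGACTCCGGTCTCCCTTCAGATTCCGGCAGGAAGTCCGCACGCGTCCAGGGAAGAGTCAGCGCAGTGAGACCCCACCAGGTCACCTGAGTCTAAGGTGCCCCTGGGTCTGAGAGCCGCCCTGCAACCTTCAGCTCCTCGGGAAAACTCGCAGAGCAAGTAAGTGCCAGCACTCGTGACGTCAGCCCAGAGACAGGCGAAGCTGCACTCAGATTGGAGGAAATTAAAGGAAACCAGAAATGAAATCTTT
Trnp1: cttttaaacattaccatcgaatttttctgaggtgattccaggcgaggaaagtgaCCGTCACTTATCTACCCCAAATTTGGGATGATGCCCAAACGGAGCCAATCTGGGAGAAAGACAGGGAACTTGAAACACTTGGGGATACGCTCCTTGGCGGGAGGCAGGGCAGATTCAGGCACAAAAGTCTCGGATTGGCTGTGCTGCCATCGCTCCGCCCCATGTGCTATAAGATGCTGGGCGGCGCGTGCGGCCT
Adam8: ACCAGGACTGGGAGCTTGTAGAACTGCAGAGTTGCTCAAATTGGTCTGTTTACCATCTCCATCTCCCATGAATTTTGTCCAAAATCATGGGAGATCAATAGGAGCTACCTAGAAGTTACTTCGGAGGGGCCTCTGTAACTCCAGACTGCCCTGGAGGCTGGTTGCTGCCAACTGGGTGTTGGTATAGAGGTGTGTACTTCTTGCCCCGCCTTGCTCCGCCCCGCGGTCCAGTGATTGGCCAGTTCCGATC

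The Prickle2 windows lie on the minus strand at chr6:92534862-92535111 and chr6:92481393-92481642, under peaks with a −log10 q of 24.0 and 17.1. The Mgat4c window (chr10:102158829-102159078, plus strand) and the Gm7361 window (chr5:26257512-26257761, plus strand) lie under peaks of 7.02 and 8.47. The windows of Cyp2j6 (chr4:96553652-96553901), Tmem144 (chr3:79842680-79842929), Trnp1 (chr4:133498551-133498800) and Adam8 (chr7:139992563-139992812) are on the minus strand. Their peaks had a −log10 q of 21.7, 12.4, 10.7 and 10.5. The nearest WT peak was 107 kb from the upstream Prickle2 peak and 522 kb from the Cyp2j6 peak, and 0.554 kb from the Adam8 peak. Some of these starts were thus far from any WT peak and others beside one.

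A search of both strands for 10 short motifs found several in the printed sequences. The E-box CAGCTG, the sequence type bound by myogenic factors, starts 247 and 90 bases before the upstream Prickle2 start, and the second of these is inside the peak. CAGCTG also starts 191 bases before the Mgat4c start, with the FOX motif TGTTTAC at 145 bases, and both are inside the peak. The Tmem144 peak holds the CRE motif TGACGTCA 74 bases before the start, the ETS motif CCGGAA on the minus strand at 227 bases and the E-box CAGGTG on the minus strand at 167 bases. The Adam8 peak holds TGTTTAC at 204 bases, the C/EBP motif TTGCNNAA at 219 bases and the NFI motif TTGGCA on the minus strand at 85 bases. The Cyp2j6 peak holds the TEAD motif GGAATG 87 bases before the start. None of the 10 motifs was found in the Trnp1, Gm7361 and downstream Prickle2 windows.

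Over the 26 windows under members, CAGCTG was present in 8 (30.8%, interval 14.3 to 51.8%), in 6 of them inside the peak and in the other 2 only outside it. It was present in 12.8% of the 727 windows under KO peaks with a WT partner inside genes, in 12.3% of the 114 under WT-specific peaks and in 13.0% of all 32817 RefSeq start windows. The ETS motif CCGGAA was present in 2 of the 26 (7.69%, interval 0.946 to 25.1%), against 23.0% of the partnered windows and 12.0% of all windows. The RUNX motif TGTGGT was present in 3 of the 26 (11.5%), against 12.5% of partnered, 15.8% of WT-specific and 14.0% of all windows. The interval of CAGCTG lies above the share over all windows, and those of the other motifs include it. Each motif was read with its own interval, with no allowance for the number of motifs searched. Counting only matches inside the peak gives 6 of 26 for CAGCTG, with an interval of 8.97 to 43.6%, which includes 13.0%. That count does not cover the whole of every window, as the 13.0% does. No motif was tested, no motif contains another, and a match is a description of the sequence only.

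**Figure D1:**
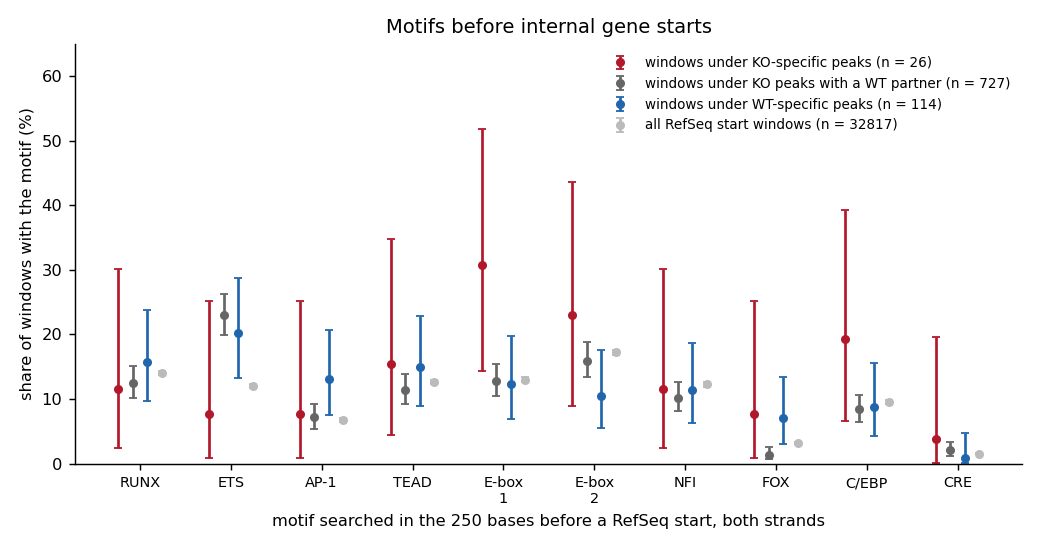
Share of windows (%) that hold each motif in the 250 bases before a RefSeq start, with exact 95% binomial intervals, for 26 windows under KO-specific peaks, 727 under KO peaks with a WT partner, 114 under WT-specific peaks and all 32817 windows; E-box 1 is CAGCTG and E-box 2 is CAGGTG. The point for E-box 1 under KO-specific peaks sits at 30.8% and the other classes at 12.3 to 13.0%.

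Base composition before the starts also differed between the classes in level. The median GC content was 51.8% (interval 48.4 to 55.6%) over the 26 windows under members and 52.4% over all windows. It was 60.0% under the KO peaks with a WT partner and 57.6% under WT-specific peaks. CpG dinucleotides, which are dense in the promoters of widely expressed genes, had a median of 4.5 per window under members, 15 under partnered peaks, 11 under WT-specific peaks and 6 over all windows. The lowest GC content among the 26 was 40.8% at R3hdm1 and the highest 70.0% at Dixdc1. Starts under KO-specific peaks thus had the base composition of annotated starts in general. Overlap with a start was itself less frequent in members (1.98%) than in KO peaks with a WT partner (7.14%), and near the 2.41% of WT-specific peaks.

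Members made up 11.4% of all 11486 KO peaks inside gene bodies (interval 10.8 to 12.0%). This is the background against which the counts in single genes are read. The same share was 3.86% within 1 kb of a gene end (344 of 8916 KO peaks) and 14.0% between genes (953 of 6785). Of the 15007 WT peaks inside gene bodies, 31.5% were WT specific. The WT list was the longer one, with 34118 peaks. Across the chromosomes the KO-specific share inside gene bodies ran from 9.04% on chromosome 15 to 14.7% on chromosome 10 (interval 12.0 to 17.7%), where Mgat4c, Tmtc2 and Ano4 lie.

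Members were weak and narrow peaks, like the KO-specific peaks elsewhere. Their median −log10 q, the deposited significance of a peak, was 8.19 (interval 7.84 to 8.47), with a range from 1.46 to 49.0. Their median deposited fold over local background was 6.22, from 2.83 to 15.8, and their median width 251 bp. KO peaks with a WT partner inside gene bodies had medians of 17.8, 8.78 and 405 bp. The KO-specific peaks near gene ends had a median −log10 q of 7.77 and those between genes 8.67. A −log10 q of at least 10 was reached by 471 members (36.0%) and by 80.6% of partnered KO peaks. When the KO peaks inside genes were divided into 5 classes of about equal size by −log10 q, the members were 31.9% of the weakest class and 0.305% (7 of 2297) of the strongest. The 58 members just inside the distance rule, 1 to 1.5 kb from a gene end, had a median −log10 q of 8.64, and the 72 KO-specific peaks just outside it, at 0.5 to 1 kb, had 7.22.

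Most members did not lie beside a WT peak. The median distance to the nearest WT peak was 15.0 kb (interval 13.8 to 16.7 kb), and 790 members (60.3%) were more than 10 kb away. Only 43 (3.28%) had a WT peak within 500 bp of their edges, so few members were near misses of the overlap rule. More than 100 kb separated 166 members (12.7%, interval 10.9 to 14.6%) from any WT peak. Among WT-specific peaks inside genes, 270 (5.71%, interval 5.06 to 6.41%) were that far from any KO peak, although the KO list had fewer peaks. Distances were not particular to the members, since 20.5% of KO-specific peaks between genes and 9.30% of those near gene ends were more than 100 kb from a WT peak. At shorter range members and WT-specific peaks were close: the WT-specific median was 12.9 kb, with 57.4% beyond 10 kb and 3.04% within 500 bp of a KO peak. Of the members with a −log10 q of at least 10, 16.8% lay more than 100 kb away. The most distant were the members of Pcdh7, a protocadherin of cell adhesion, at 3757 and 4108 kb.

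**Figure D2:**
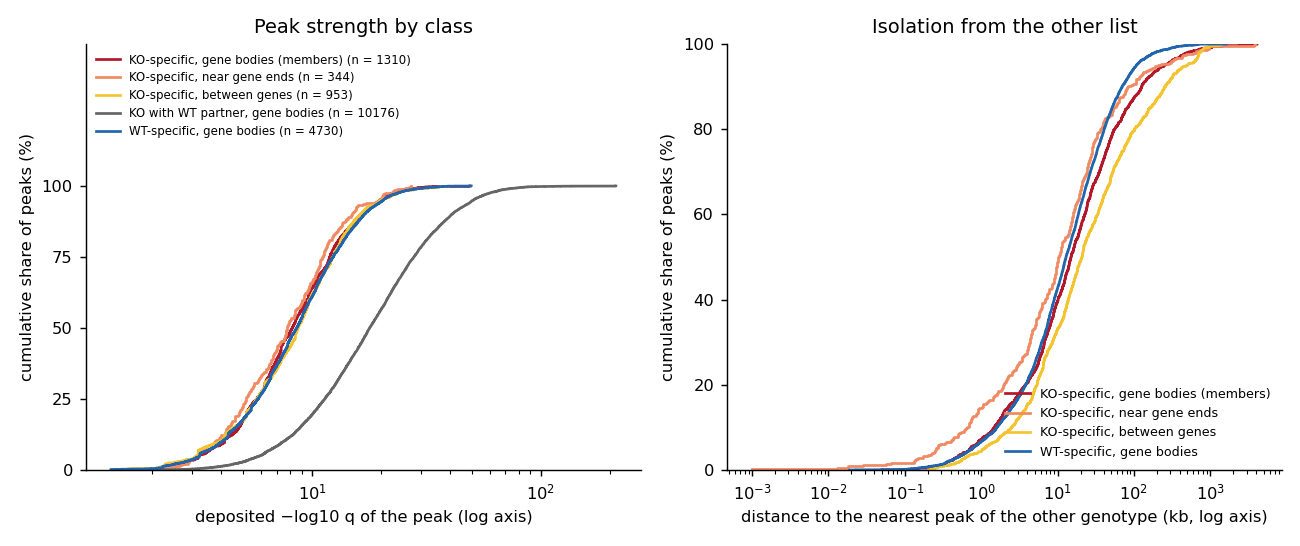
Cumulative share of peaks (%) against the deposited −log10 q (left) and against the distance in kb to the nearest peak of the other genotype (right), both on log axes, with 1 line per class of peaks. The line of the members follows the other specific classes on the left, with a median of 8.19 against 17.8 for partnered KO peaks, and on the right it reaches higher distances than WT-specific peaks, with 12.7% against 5.71% above 100 kb.

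Peak names carry numbers that rise along the chromosome, and numbers absent from the WT list were read as calls removed before deposit. Here and below, a WT call means a numbered call under the replicate 1 label of the WT list. Signal too weak to be called has no number. A removed call could have overlapped a member. Between the retained WT peaks on either side, no WT number was missing for 174 of the 1309 members that have both neighbours (13.3%). These were read as members without a WT call. The like share was 14.3% for KO-specific peaks near gene ends and 11.1% for those between genes. For WT-specific peaks inside genes, read against the KO numbers, it was 13.7%. Counting in each stretch the members in excess of the missing numbers gave at least 204 members (15.6%) without a WT call. The same bound was 18.5% for WT-specific peaks inside genes, so neither share was particular to members. For the remaining members the lists do not say whether a weaker WT call existed. The 174 had a median −log10 q of 7.32, and those beside a missing number 8.28. Ano3, an anoctamin, and Syt9, a synaptotagmin of vesicle release, stood out among the 174. The Ano3 member (chr2:110929204-110929589) had the highest fold of all members, 15.8, with a −log10 q of 33.8 and the nearest WT peak 701 kb away. The Syt9 member (chr7:107479362-107480154) had a fold of 13.9, a −log10 q of 30.0 and the nearest WT peak 1454 kb away.

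The members lay in 1169 genes, which is 18.9% of the 6187 genes with a KO peak in the body. Most hosts (1006) had 1 member, 163 had at least 2 and 33 had at least 3. Protein-coding genes made up 921 of the hosts and long non-coding RNA genes 233. In 491 hosts (42.0%) every KO peak of the body was a member, and 408 (34.9%) had no WT peak there. Both shares follow in large part from the rule that selected members, so neither was read as a trait of the hosts. A WT-specific peak was present in 440 hosts (37.6%, interval 34.9 to 40.5%), against 32.1% of all genes with a KO peak in the body and 30.8% of those without a member. Hosts were long genes, with a median length of 94.9 kb (interval 83.5 to 104 kb) against 43.0 kb for genes with KO peaks and no member, and long genes can hold more peaks of any class. The hosts with at least 3 members had a median length of 385 kb.

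The share of KO peaks that were specific was higher in the longest genes. It was 9.74% in genes of up to 25 kb, 10.3% at 50 to 100 kb, 11.7% at 200 to 400 kb, 17.2% at 400 to 800 kb (interval 14.7 to 19.9%) and 20.4% above 800 kb (63 of 309, interval 16.0 to 25.3%). Above 400 kb it was 18.0% (209 of 1160) and up to 400 kb 10.7%. Without the peaks in Erc2, Mgat4c, Gm7361 and Gm34067, a setting chosen after seeing the data, the share above 400 kb was 16.7% (interval 14.6 to 19.0%). Among peaks with a −log10 q of at least 10, also chosen after seeing the data, the shares were 10.4% above and 4.89% up to 400 kb. The WT-specific share of WT peaks lay between 30.2 and 33.8% in every length class, with no rise toward long genes. Other values moved with length: the median −log10 q of all KO peaks inside genes was 16.2 to 16.8 in the classes up to 400 kb, 15.8 (interval 14.9 to 16.7) at 400 to 800 kb and 15.7 (interval 14.4 to 16.4) above. Per Mb of summed length of all genes in a class, WT peaks were 9.85 to 14.7 up to 400 kb, 7.58 at 400 to 800 kb and 2.86 above, so that the longest genes were sparse in peaks. The part of either in the result was not tested.

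**Figure D3:**
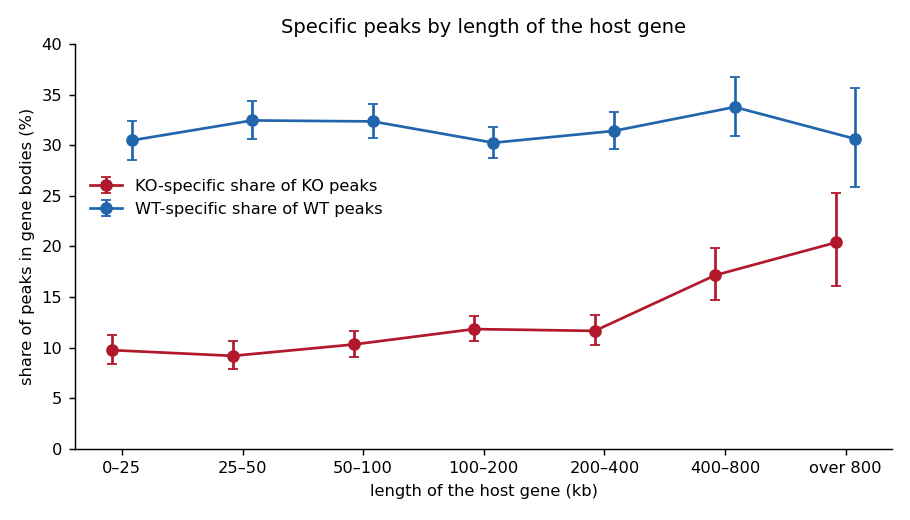
Share (%) of KO peaks that were KO specific and of WT peaks that were WT specific, inside gene bodies, by length of the host gene in kb; bars are exact 95% binomial intervals. The KO-specific share is 9.18 to 11.8% up to 400 kb and 17.2 and 20.4% in the longest classes, while the WT-specific share stays between 30.2 and 33.8%.

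Within genes of known strand, the members were spread along the body. Of 1004 such members, 19.8% lay in the 20% of the gene next to the 5′ end, and 24.2, 20.2, 18.8 and 16.9% in the following parts of equal length. KO peaks with a WT partner had 22.2% in the first of these parts. The median distance from the 5′ end was 45.2 kb (interval 40.4 to 50.8 kb) for members, 33.7 kb for partnered KO peaks and 34.8 kb for WT-specific peaks.

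The 5′ ends of the hosts, which the choice of members did not use, were mostly open in both genotypes or in neither. Of 708 protein-coding hosts of known strand, 277 (39.1%, interval 35.5 to 42.8%) had a KO peak and 303 (42.8%) a WT peak centred within 1 kb of the outermost 5′ end. The same shares were 44.2% and 50.6% for the 2968 protein-coding genes with KO peaks and no member. Over all 17274 protein-coding genes of known strand they were 38.2% and 41.8%, close to those of the hosts. Only 12 of 885 hosts of any type had a KO peak and no WT peak at the 5′ end, and 37 had the reverse. The 12 include Ces1g, a carboxylesterase, Pcdh7, Ano3 and St8sia4, a polysialyltransferase with 2 members. None of these named genes had a WT peak in the body. Of the 26 hosts with at least 3 members and known strand, 2 had a KO peak at the 5′ end (Fbxl13 and Gm15270). Hosts dense in members therefore mostly had no called peak at their outermost start, in either genotype.

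Erc2 encodes a scaffold protein of the presynaptic active zone and had the most members, 11 of its 13 KO peaks, over the 856 kb of chr14:27622275-28478537. From the 5′ end the members had a −log10 q of 31.0, 7.04, 4.21, 6.49, 26.2, 7.01, 18.7, 9.88, 21.1, 13.3 and 22.8. Strong and weak members were interspersed along the gene, and 10 of them lie between 132 and 413 kb from the 5′ end. The last, at chr14:28456419-28456791, was 609 kb from the nearest WT peak. The WT list had 2 peaks in the gene body, both with a KO partner, and no WT-specific peak. Within the WT list these were weak peaks, with a −log10 q of 5.42 and 7.73, and their KO partners had 30.2 and 19.2 within the KO list. In the stretch chr14:27847769-29968137 there were 9 KO-specific peaks and 8 missing WT numbers, so at least 1 of the 9 had no WT call.

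Mgat4c had 8 members among 9 KO peaks, in the 710 kb of chr10:101681487-102391851. Their −log10 q was 14.2, 15.0, 4.15, 7.33, 9.64, 14.8, 7.02 and 9.77 from the 5′ end, so none reached the strength of the Erc2 peaks above 20. The only WT peak of the body was strong within its list (67.0) and had a KO partner of 50.9, at 490 kb from the 5′ end. Members lay on both sides of it, the nearest at 3.28 kb. The stretch chr10:100958700-102171167 contained no retained WT peak, 10 KO-specific peaks and 1 missing WT number. At least 9 of these 10 therefore had no numbered WT call. In this stretch the absence from the WT list is thus mostly an absence of numbered calls. Whether weaker signal or calls of other WT replicates lay there is not known.

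A stretch of 1919 kb on chromosome 5 (chr5:25760185-27679158) held the most KO-specific peaks between neighbouring WT peaks, 13, of which 7 are members. They lie in Gm34067, a predicted long non-coding RNA gene, in the predicted gene Gm7361, and in Dpp6, which encodes a subunit of potassium channels. With 6 missing WT numbers, at least 7 of the 13 had no WT call. The Gm7361 peaks chr5:26202521-26203013 and chr5:26221915-26222387 had the highest −log10 q of all members, 49.0 and 48.1, with folds of 12.9 and 14.7. The highest Gm34067 peak (chr5:26165498-26165716) had 32.5 at a fold of 10.3. Among 1089 KO peaks inside genes whose fold was within 5% of this, the median −log10 q was 21.8, and 89.6% were below it. The Gm7361 peaks were above 89.5 and 65.5% of the peaks of like fold. Other members among the highest by −log10 q or fold ranked widely: Mmp15 above 87.8%, Ces1g above 82.7%, Rbfox3 above 78.0% and Erc2 above 54.7%. Those in Syt9 (16.3%), Lrrtm4 (7.36%), Pde4d (6.93%), Astn2 (6.72%), Gm33981 (4.55%), Ano3 (3.78%), Chchd3 (3.63%) and Alcam (2.76%) ranked low. All of these members were picked by their −log10 q or fold, so such ranks follow in part from that choice.

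**Figure D4:**
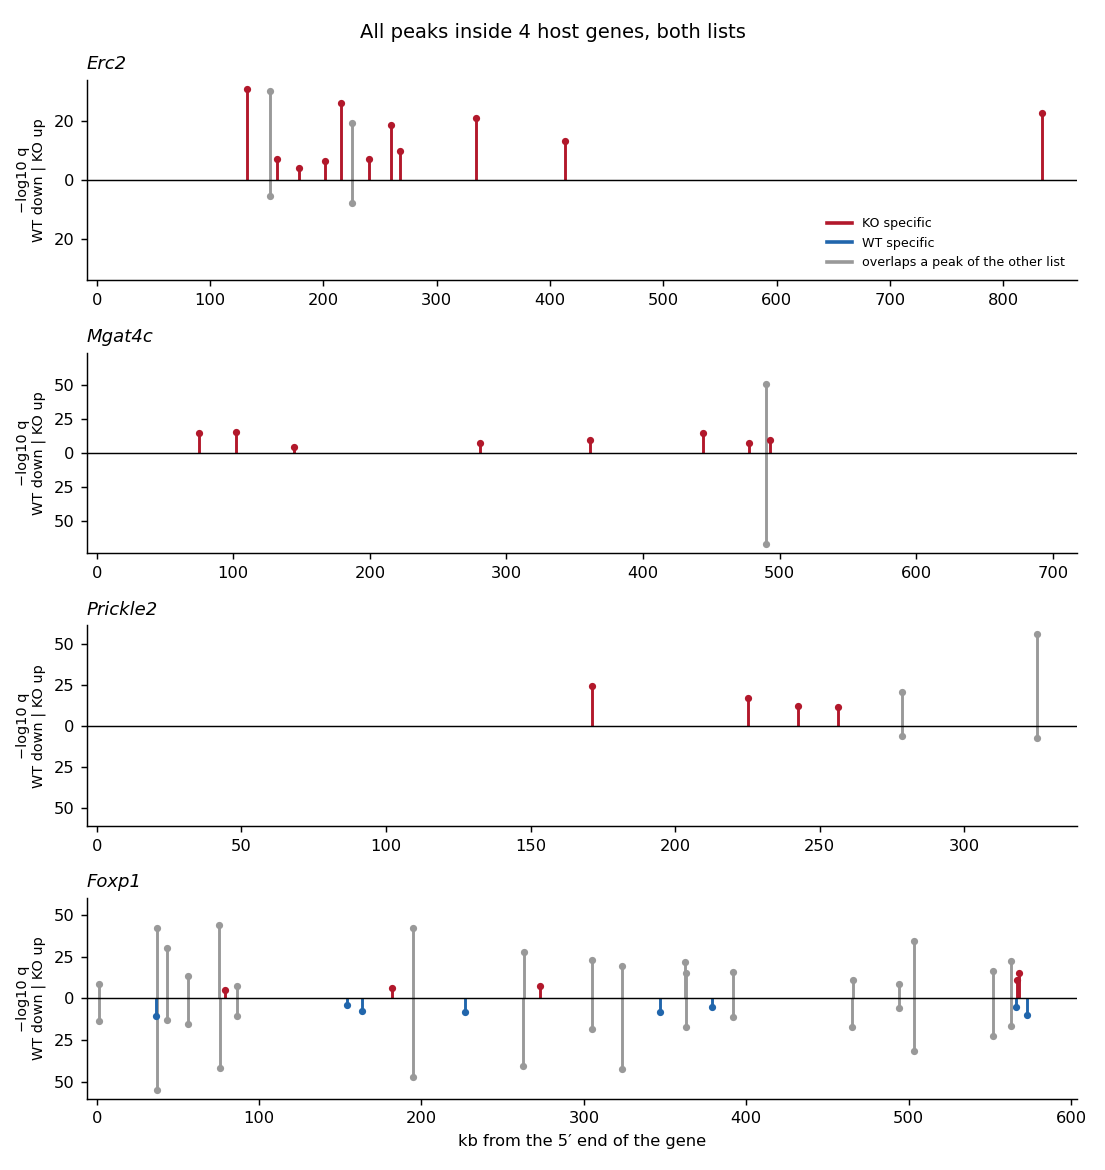
All peaks inside Erc2, Mgat4c, Prickle2 and Foxp1, by distance in kb from the 5′ end of the gene; the height is the deposited −log10 q, drawn up for the KO list and down for the WT list, and colour marks peaks specific to a genotype. Erc2 shows 11 KO-specific peaks beside 2 shared ones, Mgat4c 8 beside 1, and Foxp1 5 KO-specific and 8 WT-specific peaks among shared ones.

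Prickle2 held 4 members among 6 KO peaks, at 171, 225, 242 and 256 kb from the 5′ end of a gene of 335 kb. Their −log10 q was 24.0, 17.1, 12.0 and 11.6, so the strongest was the most 5′ and the most distant from a WT peak. Both of its starts printed above lie under the first pair. The shared peaks at 278.5 and 325 kb had 20.6 and 55.6 in the KO list, and 6.04 and 7.38 in the WT list, where they were weak peaks. No WT-specific peak was found in Prickle2. The 4 members share 1 stretch without retained WT peaks, with 4 missing WT numbers, so that the lists do not show for any of them that no WT call existed.

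Foxp1, a forkhead transcription factor, had a different makeup. Its 5 members were 21.7% of 23 KO peaks, against 11.4% over all KO peaks in gene bodies. Of its 25 WT peaks, 8 were WT specific, which is close to the 31.5% over all WT peaks in gene bodies. The members had a −log10 q of 5.34, 6.58, 7.41, 11.3 and 15.2 from the 5′ end and lay 0.337 to 12.9 kb from a WT peak. The 2 members nearest the 3′ end were stronger than the median member, and the members lay scattered among shared and WT-specific peaks. Dlc1, a GTPase-activating protein, had 5 members among 9 KO peaks, with a −log10 q from 3.99 to 23.9, and 2 WT-specific peaks. Ppargc1a, the coactivator of mitochondrial genes, had 3 members (9.64, 20.1 and 16.8) among 7 KO peaks, and 5 of its 9 WT peaks were WT specific. Psd3, an exchange factor for ARF GTPases, had 4 members and 4 WT-specific peaks. In these genes each list had calls that the other lacked.

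Other hosts with at least 3 members had no WT peak in the body. These were Tmtc2, a membrane protein of the endoplasmic reticulum, and Ablim3, an actin-binding LIM protein, with 4 members each, and Gm7361, Gm34067, Gm13794, Ralyl, Prkd1 and Col28a1 with 3 each. In all 8 genes the KO peaks of the body were all members, which follows almost wholly from the lack of a WT peak there. The Tmtc2 members had a −log10 q of 3.31, 14.3, 22.4 and 4.36 and lay 280 to 370 kb from a WT peak. Prkd1, a protein kinase activated by diacylglycerol, had 4.15, 13.5 and 16.3 at 441 to 505 kb. The members of Ralyl lay 741 to 894 kb from a WT peak, and those of Gm13794 more than 1037 kb.

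The remaining hosts with at least 3 members include genes of the cell surface and the matrix. Slc14a2, a urea transporter, had 4 members among 5 KO peaks. Pappa, a protease that releases insulin-like growth factors, had 3 members (19.4, 11.1 and 11.5) within 9.81 kb, among 5 KO peaks and with no WT-specific peak. Robo2, a receptor for Slit guidance proteins, had 3 of 9, and Cdh6, a cadherin, 3 of 4. Col4a2, a chain of basement membrane collagen, had 3 of 13, of which the strongest (chr8:11346242-11346743) had 23.6. Sgcd, the delta subunit of the sarcoglycan complex of the muscle membrane, had 3 of 9. The others with 3 members were Slc39a11, Alk, Fbxl13, Macrod2, Patj, Inpp4b, Spire1, Pla2g4a, Ano4, Npas3, Gm15270 and Tll1, in which members made up 30.0 to 100% of the KO peaks.

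**Figure D5:**
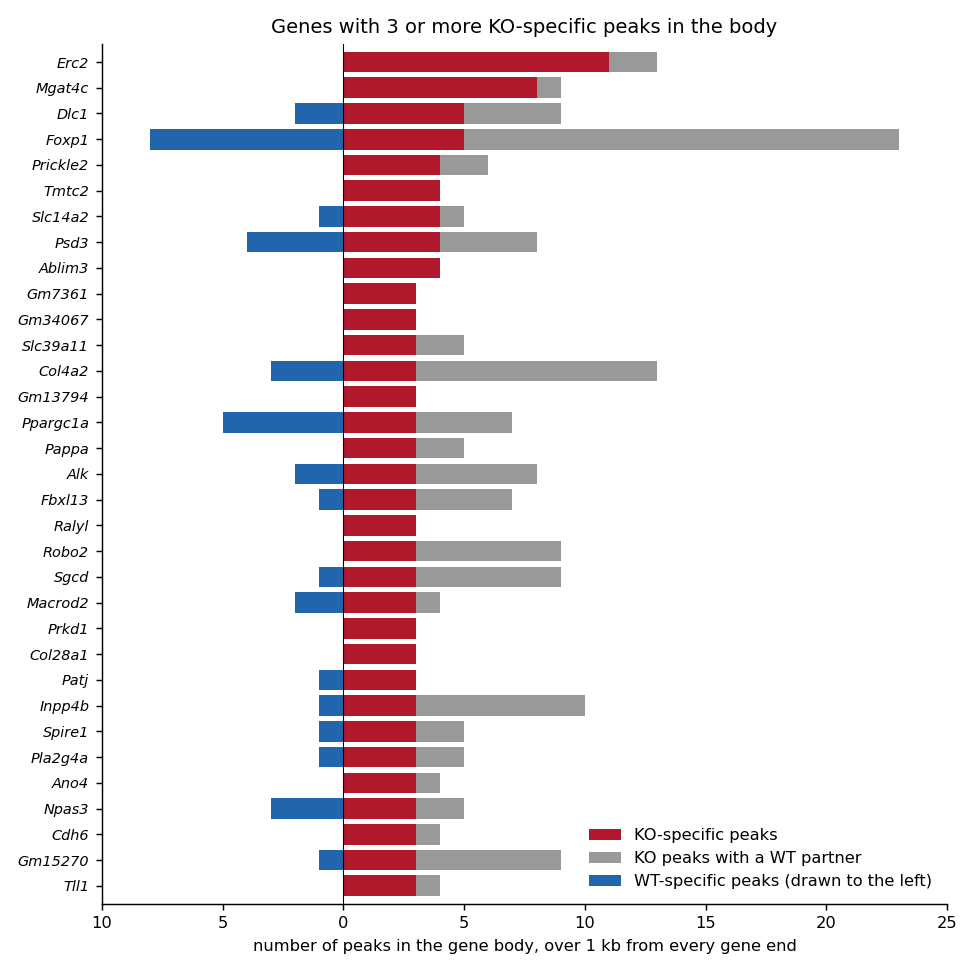
Number of peaks in the body of each of the 33 genes with at least 3 members: KO-specific peaks and KO peaks with a WT partner to the right of 0, WT-specific peaks to the left. Erc2 and Mgat4c have 11 and 8 KO-specific peaks and no WT-specific peak, but only 2 and 1 WT peaks in the body. Foxp1 has 5 KO-specific peaks and 8 WT-specific peaks among 25 WT peaks.

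The strongest single members were spread over other genes. Beside those of Gm7361, Ano3, Gm34067, Erc2 and Syt9, the 10 highest by −log10 q were in Ces1g (31.5), Rbfox3 (29.2), Lrrtm4 (29.1) and Mmp15 (28.7). Rbfox3 encodes a neuronal splicing factor, Lrrtm4 a synaptic adhesion protein and Mmp15 a membrane-bound metalloproteinase. The 10 highest by fold also included members of Chchd3 (13.6), a mitochondrial inner membrane protein, of Astn2 (13.1), of the adhesion molecule Alcam (13.0), of the cAMP phosphodiesterase Pde4d (12.8) and of Gm33981 (12.6). In Pde4d the 2 members stood among 21 KO and 25 WT peaks. Both KO peaks of Astn2, Ces1g and Syt9 were members, and these bodies held no WT peak to overlap.

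Members were seldom neighbours. Within 10 kb of another member lay 65 (4.96%), in 28 pairs and in 3 runs of 3, which were in Gm34067, Gm13794 and Pappa. No WT peak stood between the members of these 3 runs. On the coarser scale of stretches between retained WT peaks, 1165 stretches contained a member, 102 at least 2, 26 at least 3 and 3 at least 5. The last were the Mgat4c, Erc2 and chromosome 5 stretches.

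Runx1 itself held no member. All 10 KO peaks in its body had a WT partner, where 11.4% of all KO peaks in gene bodies had none. Of its 17 WT peaks, 7 were WT specific, beside 31.5% of all WT peaks in gene bodies. With so few peaks, neither count was read as a difference from these shares. The peaks do not show the edited allele. A list of RUNX and ETS factors, which also holds the corepressor gene Runx1t1, had 21 genes. Of these, 15 had a KO peak in the body and 5 a member, and the members were 6 of 48 KO peaks (12.5%, interval 4.73 to 25.2%). They were 2 in Runx2 (6.54 and 10.1), a regulator of bone formation, and 1 each in Runx1t1, a corepressor, and in Elf1, Ets1 and Elf2. The share lay near the background of 11.4%.

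Genes of the muscle program were read next. Of 20 myogenic regulators, 7 had a KO peak in the body, and 1 of the 14 KO peaks was a member (7.14%, interval 0.181 to 33.9%, against the background of 11.4%), in Pax3, a regulator of muscle progenitors. The 10 myoblast markers had no member among 17 KO peaks in 5 bodies (interval 0 to 19.5%). Both intervals include the background. In the marker genes and 10 kb on either side, 8 of the 10 had a KO peak and 9 a WT peak, with 26 KO and 33 WT peaks. Myod1, Des and Cdh15 had 2 peaks in each list, Myf5 none in either and Pax7 1 in the WT list only. Of 10 markers of other cell types, 5 had KO peaks (8 in all) and 5 had WT peaks (9), with Krt18 in the KO list only, Adipoq in the WT list only and no peak at Ptprc, Epcam, Sox10 and Acan. Inside the gene bodies they had 2 members among 4 KO peaks (interval 6.76 to 93.2%), in Rbfox3 and Cdh5. This interval also includes the background of 11.4%, so the count was not read as a contrast with the myoblast markers. Peaks are no measure of expression, so these counts describe the label as a myoblast line and do not test it.

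The contractile and membrane apparatus was the next list. Of 31 genes of the sarcomere, calcium handling and the dystrophin complex, 17 had a KO peak and 7 a member, with 10 members among 57 KO peaks (17.5%, interval 8.75 to 29.9%). Sgcd had 3 and Cacna1c, the pore of the L-type calcium channel, had 2 (23.7 and 11.1). Ryr2, a calcium release channel, had 1 of 20.5, its only KO peak. Utrn, the paralogue of dystrophin, had 1 of 11.9. The interval includes the background. A WT-specific peak was present in 15 of the 31 genes. Of the 78 WT peaks in the bodies of this list, 39.7% were WT specific, beside 31.5% of all WT peaks in gene bodies, and the difference was not tested.

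The list of synaptic active zone and adhesion genes had the most members, 22 of 80 KO peaks (27.5%, interval 18.1 to 38.6%), in 9 of 18 genes with a KO peak. Erc2 alone gave 11. Without Erc2, a setting chosen after seeing the data, the share was 16.4% (11 of 67, interval 8.49 to 27.5%), with 2 each in Lrrtm4, Ptprd and Dlgap1. The enzymes of N-glycan branching likewise had 9 of 15 (60.0%), of which 8 were in Mgat4c and 1 in Mgat5, and 1 of 6 (16.7%) without Mgat4c. These lists thus stood above the background through 1 gene each. Cadherins and protocadherins had 11 of 62 (17.7%, interval 9.20 to 29.5%), in Cdh6 (3), Pcdh19 (2), Pcdh7 (2) and 4 further genes.

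The other lists were close to the background. AP-1, TEAD, NFI and FOX factors had 11 of 76 (14.5%), with 5 in Foxp1, 2 in Nfia and 1 each in Tead4, Foxn3, Nfib and Vgll4. Axon guidance genes had 10 of 79 (12.7%), with 3 in Robo2 and 2 each in Plxna4 and Nrp2. Collagens, laminins and integrins had 8 of 77 (10.4%), growth factor, TGF-beta, Wnt and Notch genes 8 of 88 (9.09%, with 2 each in Wnt5b and Fgfr2), and adipocyte and bone cell factors 3 of 25 (12.0%). Over the 12 lists together the members were 14.7% of KO peaks (interval 12.2 to 17.4%), beside the background of 11.4%. Erc2 gave 11 of these members from 13 KO peaks and Mgat4c 8 from 9. The pooled share without these genes was not computed. The lists were chosen by hand, so these shares are descriptions and were not tested.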

How the data were processed

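The authors deposited 5 lists of ATAC-seq peaks in the narrowPeak layout, without headers: the full list of each genotype in growth medium, the peaks specific to each, and the shared peaks. The genome build is mm10, per the submitters' processing notes. The aligner, the peak caller and the treatment of duplicates are not given in the sources used here, and each can move peak edges and numbers. Per the labels, 3 samples were made per group, but each deposited list has 1 set of values, under names with a replicate 1 label. Each peak has a fold, a ratio to its local background, and a −log10 q, both as deposited by the authors and used only within a list. No column of per-sample values was left out, and the labels give no batch.

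Gene positions, starts and start sequences came from RefSeq tables of GRCm38.p6. The strand of a gene was taken from its starts. Exons were not used here, so exonic and intronic members were not separated. An overlap of 1 bp counted as shared, which gave exactly the deposited specific lists. Intervals are Clopper-Pearson for shares and order-statistic for medians. Python 3.11.15, numpy 2.4.6, pandas 2.3.3, scipy 1.17.1 and matplotlib 3.10.9 were used, and 8 of 8 checks passed on simulated data. Named genes were Runx1, hosts with at least 3 members, hosts of the 10 members highest by −log10 q or by fold, and list genes with at least 2 members or up to 4 examples per list; R3hdm1, Dixdc1, St8sia4, the markers and like-fold examples, Fbxl13 at its 5′ end and the genes of the printed sequences were chosen after their values were seen. The result of 1 list is not reported here. The members and the lists were chosen with earlier results of these data known. GC content and motifs of all members were planned and not run, since no genome was used here.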

Additional observations from a re-analysis of the deposited data

Results flagged for a closer look

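An unnamed further column of the specific lists entered no comparison above. It was filled, with the start of the peak, for 25 members (1.91%, exact 95% interval 1.24 to 2.80%), and was empty for the rest. It drew attention as a signal outside the measurement, with no control samples. The column was filled for 14 of 344 KO-specific peaks near gene ends (4.07%) and for 19 of 953 between genes (1.99%). The 25 members had a median −log10 q of 8.04 and a median width of 276 bp (interval 255 to 345 bp), against 8.19 and 250 bp (interval 240 to 258 bp) for the others. Among them were the strongest member of Ces1g, at 31.5, and members of the phosphatase gene Ptprr, at 18.3, and of Angptl4, a secreted inhibitor of lipoprotein lipase, at 7.48. What the column stands for is not stated.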

How the results depend on the processing

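Of 62 alternative values, 51 stayed within the interval of the reported value or within 1.5 times of the reported count, and 11 moved beyond. The number of members ran from 1020 with gene ends of 5 kb to 1382 with 500 bp. Limiting peaks to a −log10 q of at least 10 lowered the KO-specific share inside gene bodies to 5.43%, the genes with a member to 449 and those with at least 3 to 5, because most members are weak. With the same limit, chosen after seeing the data, the share in genes above 400 kb was 10.4%, and 16.8% of members lay more than 100 kb from a WT peak. With gaps of 5 and 25 kb, 26 and 145 members were in a run and 0 and 7 runs had 3 or more, as the gap sets. The list shares without Erc2 (16.4%) and without Mgat4c (16.7%) also moved. The motif alternatives for all members were not run, since no genome was used here. No paired analysis was possible because each list gives 1 set of values per genotype, not one per replicate, which also leaves no replicate to leave out. Depth is unknown, and beyond the 204 members counted above the lists do not show whether a weaker WT call existed.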

Other observations

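The shared peaks of the host genes, which the choice of members did not use, were described within each list. In the KO list the 2152 partnered peaks in hosts of members had a median −log10 q of 17.8 (interval 17.3 to 18.6), and the 8024 in genes without a member also had 17.8 (interval 17.5 to 18.2). In the WT list the shared peaks in hosts had a median of 19.0 (interval 18.2 to 19.8, n = 2160) and those in genes without a member 20.2 (interval 19.8 to 20.5, n = 8117). In the hosts with at least 3 members the medians were 19.5 (n = 94) in the KO list and 16.9 (interval 12.4 to 19.7, n = 92) in the WT list. Values of the lists are not on a common scale, so no difference between genotypes was computed.

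Further genes of the synaptic and cadherin lists had strong members. Csmd3, a large membrane protein, had 1 member of 20.6, its only KO peak in the body, 2387 kb from the nearest WT peak. Pcdh19, an X-linked protocadherin, had members of 23.4 and 16.4 among 7 KO and 6 WT peaks, 9.11 and 1.14 kb from a WT peak, and peaks of both lists at its 5′ end.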
